A study of Mus musculus with 12 samples.

Results

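The genes described here encode the heterochromatin protein 1 (HP1) family and the methyltransferases other than G9a that act on lysine 9 of histone H3, with 2 of their cofactors. They were chosen by name: Suv39h1, Suv39h2, Setdb1, Setdb2, Atf7ip, Trim28, Cbx1, Cbx3 and Cbx5. Every probe set annotated to exactly 1 of these 9 symbols was taken, which gave 23 probe sets for 8 genes out of 45101 probe sets on the array. The platform annotation supplied with the series lists no probe set under Suv39h1, which was not analysed here. Tested were the 14 of these 23 with a value over log2 4 in 3 or more of the 6 arrays, and the other 9 were at or under that filter. The 8 genes stand among 18194 with a probe set of their own.

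RNA came from MEL cells, a mouse erythroleukemia line in which dimethyl sulfoxide (DMSO) induces erythroid maturation. As whole cultures were measured, fewer cells of a type and less RNA per cell cannot be told apart. The knockdown cells carried a knockdown of G9a, induced with doxycycline at 5 µg/ml per the labels' protocols (3 arrays), and were compared with wild type MEL cells (3 arrays). Both groups had 2% DMSO for 4 days. The labels share 1 protocol text between the groups, so whether wild type cells also received doxycycline is not given in the sources used here, nor are the knockdown construct, the number of clones, or whether the replicates were separate cultures. The p-values therefore cover only array-to-array spread, and part of it may be technical. In the main fit this is the spread of the differences between arrays of the same replicate number.

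Methylation of lysine 9 on histone H3 marks silenced chromatin. G9a and its partner GLP mainly place the monomethyl and dimethyl forms in euchromatin, the SUV39H enzymes place the trimethyl form at pericentric repeats, and SETDB1 places it at retroelements and at genes bound by KRAB zinc finger proteins. HP1 proteins bind the methylated lysine through their chromodomain and bring further silencing factors to it. The comparison asks whether transcripts of these other writers and readers differ when G9a is depleted in maturing erythroid cells.

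Values are the deposited GCRMA values on the log2 scale, differences are knockdown minus wild type with the replicate number as a block in limma, and adjusted p-values are over all 17028 probe sets tested. GCRMA levels of different probe sets depend on their probes, so no gene's level is set against another's. Both arrays numbered 1 stood apart: over the tested probe sets, the median correlation with the other arrays was 0.980 for knockdown 1 and 0.976 for wild type 1, against 0.984 to 0.989 for the other 4. Of 12 erythroid marker genes listed, 10 had a probe set of their own and 9 were above the filter. These were Alas2, Gata1, Klf1, Epor, Tfrc, Epb42, Slc4a1, Hbb-b2 and Hba-a2, while Hba-a1 was not above it. None of 3 lymphoid and 4 fibroblast or endothelial markers on the array was above the filter, nor were Mpo, Elane, Itgam, Lyz2, Gp9, Gp1bb and Vwf, while the myeloid genes Prtn3 and Csf1r and the megakaryocyte genes Itga2b and Pf4 were. Summed GCRMA log2 values of the 2 myeloid genes were 11.4 to 12.6 in knockdown arrays and 10.7 to 11.6 in wild type arrays, and those of the 2 megakaryocyte genes were 18.1 to 20.1 in knockdown arrays and 20.0 to 20.5 in wild type arrays. Itga2b read 11.05, 11.47 and 10.93 in knockdown arrays, against 11.65, 11.84 and 12.08 in wild type arrays, lower in every knockdown array, with a difference of −0.71 (limma unadjusted p = 0.00731, adjusted p = 0.226). Prtn3 read 5.82, 6.30 and 5.04 in knockdown arrays, against 5.25, 4.35 and 3.97 in wild type arrays, higher in all 3 pairs though the groups overlapped, with a difference of 1.19 (limma unadjusted p = 0.0052, adjusted p = 0.21). Csf1r differed by −0.049 (0.44 at its other tested probe set, 1419872_at) and Pf4 by −0.12. None of these 4 genes was called, and their part in the results below was not tested. Of the 9 erythroid genes, 6 had a difference above 0 (48.9% of all genes) and 3 below, and 0 were called. Among them 1 had an unadjusted p under 0.05, where 14.2% of all genes passed. This was Klf1, with a difference of 0.40 (limma unadjusted p = 0.00924, adjusted p = 0.241). These counts took each gene by its brightest tested probe set. Hbb-b2, counted at −0.30, differed by 0.48 at its other tested probe set, 1427865_at (limma unadjusted p = 0.00418). The other tested probe sets of Tfrc, Epb42 and Slc4a1 had the sign of the counted one.

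Ehmt2, the gene for G9a, was lower in every knockdown array. At probe set 1460692_at it read 6.67, 7.33 and 7.58 in knockdown arrays 1 to 3, against 9.92, 10.03 and 10.23 in wild type arrays 1 to 3. The groups lay more than 2 log2 units apart, and Ehmt2 fell by 2.87 (limma adjusted p = 0.0316), to 0.137 of the wild type level with a 95% interval of 0.105 to 0.177. Without the replicate block the limma adjusted p at this probe set was 0.0719. At 1426888_at Ehmt2 read 4.29, 4.28 and 4.16 in knockdown arrays, close to the filter, against 7.43, 7.07 and 6.82 in wild type arrays (limma adjusted p = 0.0278). These were the 2 probe sets called on the array, 0.0117% of those tested. In MAS5, the other deposited summary, both differences had the same sign, and neither was called (limma adjusted p = 0.419 at 1426888_at and 0.295 at 1460692_at).

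None of the 14 tested probe sets for the HP1 genes, the other methyltransferases and their cofactors passed the threshold (limma adjusted p from 0.36 to 0.996), against the 0.0117% called over the array. At an unadjusted p under 0.05 there was 1, for Cbx5, where 13.7% of all tested probe sets passed. Without the block 0 were called (0.00587% over the array) and 0 had an unadjusted p under 0.05, where 5.87% passed. In MAS5 0 were called (0% over the array) and 1, for Cbx1, had an unadjusted p under 0.05, where 10.6% passed. Differences ran from −0.26 to 0.10, with 8 below 0 (51.7% of all tested probe sets) and 6 above, and their median was −0.039, against −0.0083 over all tested probe sets. Their median unsigned difference was 0.063, against 0.13 over all. Taken over the 14 probe sets, the 95% intervals reached at the extremes 0.672 and 1.40 of the wild type level. A change as large as that of Ehmt2 thus lay outside every one of these intervals. At the dim probe sets, however, a fall of that size may not have been measurable. Wild type means there were 4.74 and 4.14 for Suv39h2, 4.97 for Cbx1 at 1422935_x_at and 5.45 for Setdb1 at 1458215_at. The median of each array over all probe sets was 2.99 to 3.10.

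**Figure D1:**
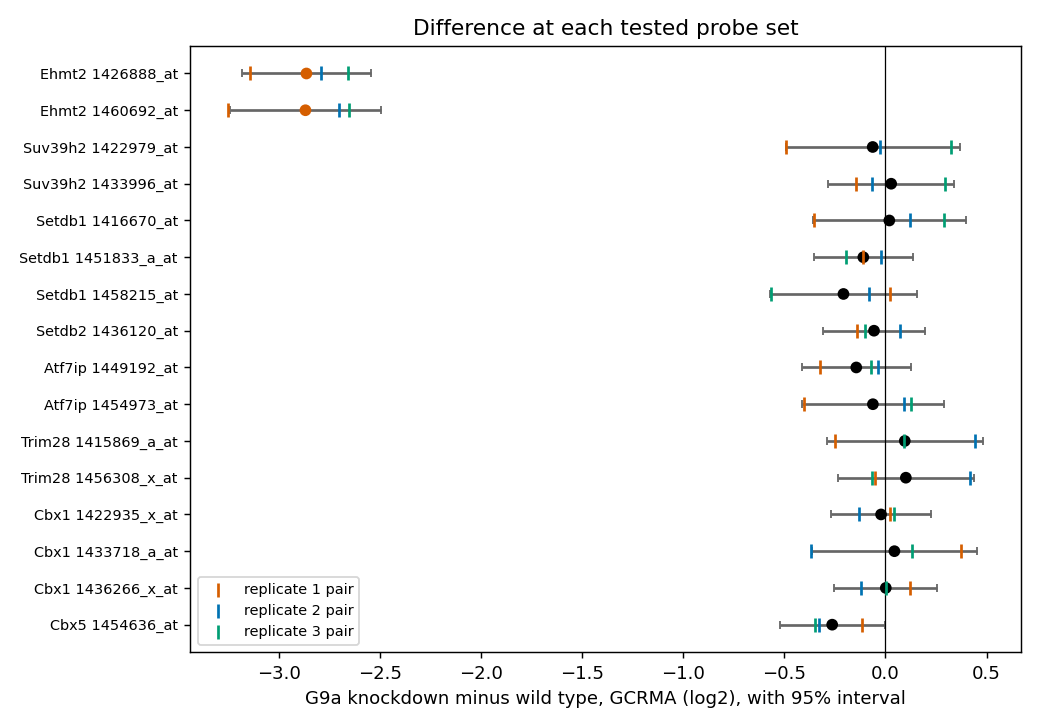
Knockdown minus wild type difference (horizontal axis, GCRMA log2) at the 2 Ehmt2 and 14 tested HP1 and methyltransferase probe sets. Dots are the fitted differences (orange where the adjusted p is under 0.05), bars their 95% intervals, and coloured ticks the difference within each replicate number; the 2 Ehmt2 dots lie near −2.87 and the other 14 between −0.26 and 0.10.

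Suv39h2, which encodes an enzyme that trimethylates lysine 9 in pericentric heterochromatin, was dim in both groups. At 1422979_at it read 5.03, 4.39 and 4.60 in knockdown arrays, against 5.52, 4.42 and 4.28 in wild type arrays. The groups overlapped, and the higher values were those of the arrays numbered 1 in both groups, 0.85 above the mean of the other 4 arrays. The difference was −0.063 with a 95% interval of −0.49 to 0.37, and it was 0.15 without replicate 1. At 1433996_at Suv39h2 read 4.48, 3.98 and 4.03 in knockdown arrays, against 4.63, 4.04 and 3.74 in wild type arrays, with a difference of 0.028 (−0.28 to 0.34). Both arrays numbered 1 were again above the other 4, by 0.60 on average. In MAS5 that probe set read 222, 206 and 157 in knockdown arrays, against 94.3, 175 and 136 in wild type arrays, so there wild type 1 was the lowest array and the order of the GCRMA values was not kept. The third Suv39h2 probe set, 1436561_at, was under the filter, at 2.99 ± 0.22 in the knockdown and 2.92 ± 0.035 in wild type (SD, n = 3 each).

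Setdb1, which encodes the trimethylating enzyme that TRIM28 recruits, had 3 tested probe sets. At its brightest, 1451833_a_at, it read 10.32, 10.30 and 10.11 in knockdown arrays, against 10.43, 10.33 and 10.30 in wild type arrays. The groups overlapped narrowly, each knockdown array was below the wild type array of its number, and the difference was −0.11 (95% interval −0.35 to 0.13, limma adjusted p = 0.658). Only 3 of the 14 probe sets had 1 sign in all 3 pairs (37.9% of all tested probe sets), all of them negative, where 20.6% of all tested probe sets were negative in all 3. The other Setdb1 probe sets did not share that pattern. At 1416670_at Setdb1 read 7.57, 7.73 and 7.41 in knockdown arrays, against 7.92, 7.61 and 7.12 in wild type arrays, a difference of 0.019 (−0.36 to 0.40) in which the pair differences ran from −0.36 to 0.29. At the dimmest, 1458215_at, it read 5.10, 5.50 and 5.11 in knockdown arrays, against 5.08, 5.58 and 5.68 in wild type arrays. The difference there, −0.21 (−0.57 to 0.16), came mostly from the pair numbered 3, at −0.57, and was −0.028 without it.

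Setdb2, a SET domain protein related to SETDB1, had 1 probe set. It read 7.72, 7.69 and 7.55 in knockdown arrays, against 7.86, 7.62 and 7.66 in wild type arrays. The groups overlapped and the difference was −0.057 (95% interval −0.31 to 0.20), or 0.807 to 1.15 of the wild type level.

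Atf7ip encodes a partner that stabilises SETDB1 in the nucleus. At 1449192_at it read 8.47, 8.56 and 8.06 in knockdown arrays, against 8.79, 8.60 and 8.13 in wild type arrays. Values followed the replicate number more than the group, since arrays numbered 3 were the lowest of each group, and the difference was −0.14 (95% interval −0.42 to 0.13). At 1454973_at Atf7ip read 8.68, 8.90 and 8.75 in knockdown arrays, against 9.09, 8.81 and 8.62 in wild type arrays, a difference of −0.062 (−0.41 to 0.29). There the pair numbered 1 was negative and the other pairs positive, and the difference was 0.11 without replicate 1. The remaining Atf7ip probe set, 1446323_at, was under the filter at 2.50 in both groups.

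Trim28, the corepressor that links KRAB zinc finger proteins to SETDB1 and HP1, was clearly measured at both of its probe sets. At 1415869_a_at it read 12.21, 12.31 and 12.21 in knockdown arrays, against 12.46, 11.87 and 12.11 in wild type arrays. The knockdown arrays lay within the wild type range, and the difference was 0.095 (95% interval −0.29 to 0.48). At 1456308_x_at Trim28 read 11.34, 11.19 and 10.82 in knockdown arrays, against 11.39, 10.77 and 10.88 in wild type arrays, a difference of 0.10 (−0.24 to 0.44). At both probe sets the pair numbered 2 was the most positive, at 0.44 and 0.42, and without it the differences were −0.079 and −0.058. In MAS5 the 2 differences were 0.095 and 0.084.

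**Figure D2:**
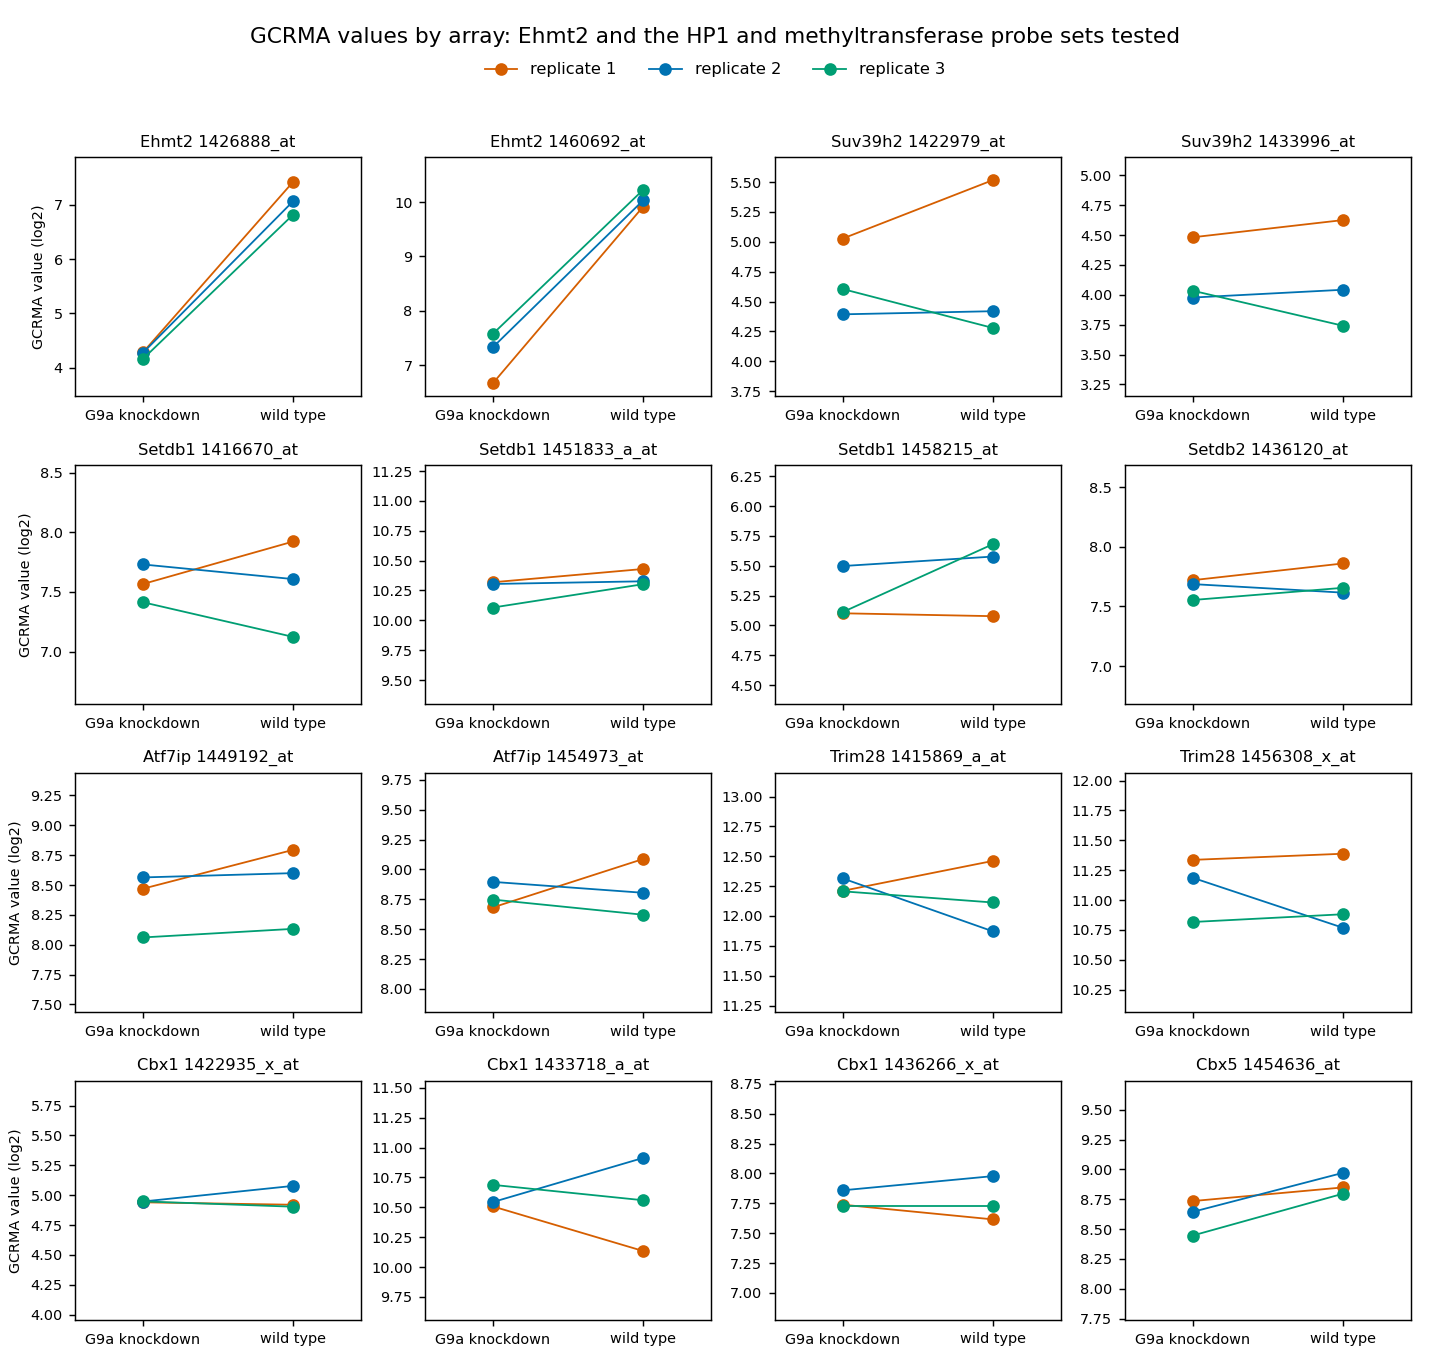
GCRMA value (vertical axis, log2) of each array at the 2 Ehmt2 and 14 tested HP1 and methyltransferase probe sets, G9a knockdown on the left and wild type on the right, with a line joining arrays of 1 replicate number. Panels span 2 log2 units, or 4.4 for Ehmt2; the groups are apart for Ehmt2, narrowly so for Cbx5 at 1454636_at (knockdown 8.45 to 8.73, wild type 8.80 to 8.97), and overlap in the other 13 panels.

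Among the HP1 genes, Cbx5, which encodes HP1α, was the 1 gene with a tested probe set whose groups did not overlap. At 1454636_at it read 8.73, 8.64 and 8.45 in knockdown arrays, against 8.85, 8.97 and 8.80 in wild type arrays. Every knockdown array was below every wild type array, as held for 7.33% of all tested probe sets, and groups that did not overlap in either direction made up 12.4%. The difference was −0.26 (SE 0.10, 95% interval −0.52 to −0.0045), or 0.833 of the wild type level, with an unadjusted p of 0.0473 and a limma adjusted p of 0.36. Without the block the unadjusted limma p was 0.0663. A larger unsigned difference was found at 20.8% of all tested probe sets. Leaving out each replicate number in turn gave −0.34 to −0.22. In MAS5 the same probe set read 1285, 1120 and 981 in knockdown arrays, against 1353, 1413 and 1159 in wild type arrays, where the groups overlapped and the log2 difference was −0.22 (limma adjusted p = 0.559).

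The other 4 Cbx5 probe sets were dim and were tested only in a fit without the filter, over 45037 probe sets. At 1421934_at Cbx5 read 3.35, 3.33 and 3.35 in knockdown arrays, against 4.63, 3.36 and 3.38 in wild type arrays. All knockdown values were lower, but wild type 1 alone stood more than 1 log2 unit above the rest, and the other pairs differed by −0.032 and −0.037. In MAS5 that probe set read 179, 105 and 130 in knockdown arrays, against 258, 227 and 194 in wild type arrays, again without overlap. In MAS5 it was the 1 probe set of the 23 with every knockdown array lower, against 4.88% of all probe sets but controls. At 1450416_at Cbx5 read 2.79, 2.74 and 2.36 in knockdown arrays, against 3.22, 2.80 and 2.85 in wild type arrays, while in MAS5 the groups overlapped because wild type 2 was the lowest array. In the fit without the filter its difference of −0.33 had an unadjusted limma p of 0.0389 and an adjusted p of 0.527. There 2 of the 23 probe sets, this one and 1454636_at, were lower in the knockdown at an unadjusted p under 0.05, against 4.69% of all. At 1421932_at and 1421933_at the GCRMA differences were −0.025 and −0.050, and the MAS5 differences had the opposite sign, at 0.10 and 0.15. All 5 GCRMA differences of Cbx5 were thus below 0, from −0.45 to −0.025, but the 5 probe sets read 1 gene on the same arrays and are not separate observations. Small differences also occurred at dim probe sets of other genes: −0.034 for Cbx1 at 1450797_a_at, −0.010 for Cbx3, −0.0014 for Atf7ip and 0.072 for Suv39h2. The median over all probe sets was highest in wild type 3, at 3.10, against 2.99 to 3.03 in the other arrays. The part of that background in the dim Cbx5 differences was not tested. Over all probe sets but controls, every knockdown array was below every wild type array at 4.3%, and among the 23 described here at 4, of which 3 were for Cbx5 and 1 for Cbx1 (1431773_at, 2.40 ± 0.027 in the knockdown and 2.56 ± 0.19 in wild type, SD, n = 3 each, under the filter).

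**Figure D3:**
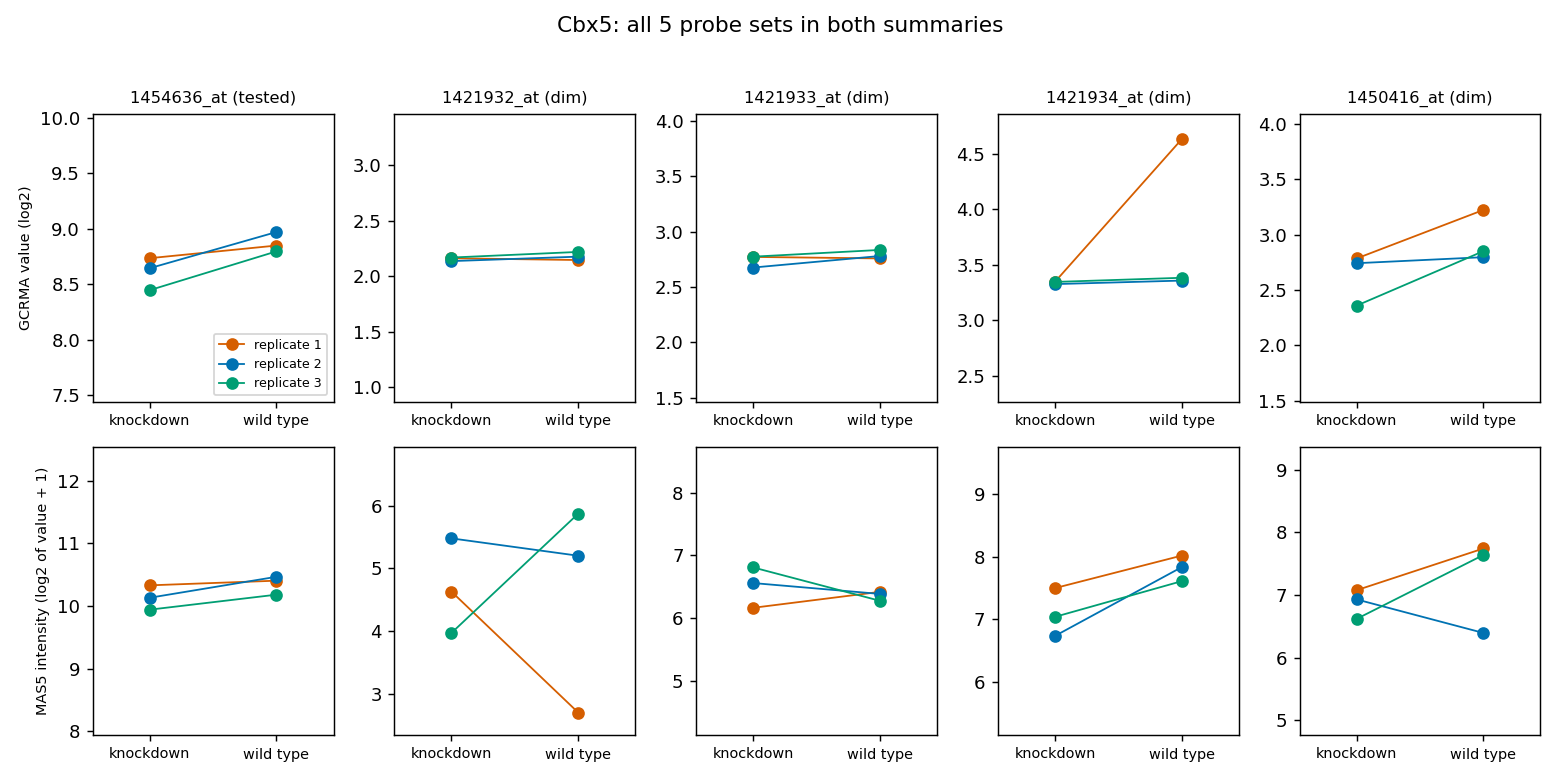
Cbx5 at its 5 probe sets, G9a knockdown on the left of each panel and wild type on the right, with lines joining arrays of 1 replicate number. The upper panels show GCRMA values and the lower panels MAS5 intensity as log2(value + 1); at the tested probe set 1454636_at the knockdown GCRMA values run from 8.45 to 8.73 and the wild type values from 8.80 to 8.97, and at 1421934_at wild type 1 stands alone at 4.63.

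Cbx1, which encodes HP1β, had 3 tested probe sets with differences of −0.022 to 0.044. At its brightest, 1433718_a_at, it read 10.51, 10.54 and 10.69 in knockdown arrays, against 10.13, 10.91 and 10.56 in wild type arrays. The knockdown arrays lay inside the wild type range, which was wider (SD 0.096 in the knockdown and 0.39 in wild type, n = 3 each), and the difference was 0.044 (95% interval −0.36 to 0.45). At 1436266_x_at Cbx1 read 7.74, 7.86 and 7.73 in knockdown arrays, against 7.62, 7.98 and 7.73 in wild type arrays, with the same order of wild type arrays and a difference of 0.0015 (−0.25 to 0.26). The third, 1422935_x_at, is dim, and the 2 summaries did not give the same picture of it. In GCRMA Cbx1 there read 4.94, 4.95 and 4.95 in knockdown arrays, against 4.92, 5.08 and 4.90 in wild type arrays. In MAS5 it read 233, 271 and 329 in knockdown arrays, against 196, 213 and 227 in wild type arrays, so that the groups did not overlap and the log2 difference was 0.37 (limma unadjusted p = 0.0252, adjusted p = 0.444). In MAS5 all knockdown arrays were higher at 6.64% of all tested probe sets. The other Cbx1 probe set, 1450797_a_at, was under the filter, at 2.91 ± 0.024 in the knockdown and 2.95 ± 0.045 in wild type (SD, n = 3 each).

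Cbx3, which encodes HP1γ, had 1 probe set of its own, 1432628_at, at 1.36, 1.34 and 1.37 in knockdown arrays, against 1.35, 1.36 and 1.38 in wild type arrays. That is far under the filter, and the MAS5 values there were scattered, at 150, 128 and 124 in knockdown arrays, against 69.8, 146 and 34.0 in wild type arrays. A further 4 probe sets are annotated both to Cbx3 and to its processed copy Cbx3-ps5 and cannot separate the 2, so they are not counted among the 23. At the brightest of these, 1416884_at, the shared signal read 12.90, 12.92 and 12.69 in knockdown arrays, against 12.62, 12.94 and 12.75 in wild type arrays, a difference of 0.071 (95% interval −0.22 to 0.36). Its sign rested on the pair numbered 1, at 0.29, and the difference was −0.038 without it. The shared signal at 1439421_x_at and 1448504_a_at differed by 0.21 and 0.18, positive in the pairs numbered 1 and 2 and negative in the pair numbered 3, with limma adjusted p-values of 0.511 and 0.642. Without replicate 1 these differences were 0.084 and 0.012, and in MAS5 they were 0.44 and 0.18, with all 3 pairs positive at 1439421_x_at in MAS5. The last, 1454305_at, was under the filter.

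The 2 summaries gave the same sign for 11 of the 14 tested probe sets, against 79.4% of all tested probe sets. The exceptions were Suv39h2 at 1422979_at (0.055 in MAS5), Setdb1 at 1416670_at (−0.12 in MAS5) and Cbx1 at 1422935_x_at. All 3 had GCRMA differences of under 0.1 in size. The largest MAS5 difference among the 14 was that of Suv39h2 at 1433996_at, at 0.56 (limma unadjusted p = 0.0697), where the GCRMA difference was 0.028.

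**Figure D4:**
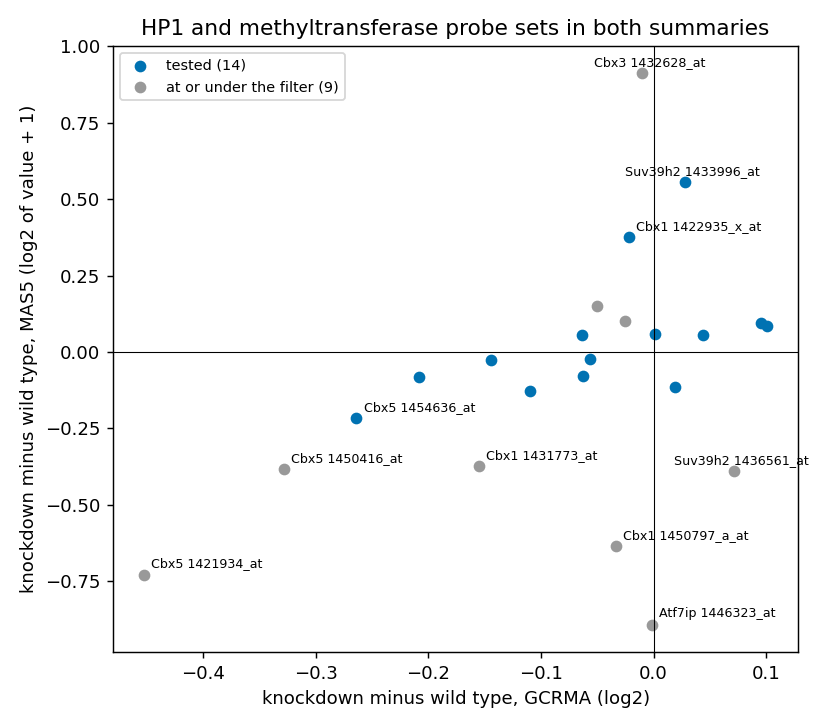
Knockdown minus wild type difference at the 23 probe sets in GCRMA (horizontal axis, log2) and MAS5 (vertical axis, log2 of value + 1), with the 14 tested in blue and the 9 at or under the filter in grey. Cbx5 at 1454636_at lies at −0.26 and −0.22, Cbx1 at 1422935_x_at at −0.022 and 0.37, and Cbx5 at 1421934_at at −0.45 and −0.73.

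Over the 14 tested probe sets the range across the 6 arrays had a median of 0.60, from 0.17 for Cbx1 at 1422935_x_at to 1.24 for Suv39h2 at 1422979_at, against a median of 0.56 over all tested probe sets. Wild type 1 was the highest of the 6 arrays at 9 of the 14, every tested probe set of Suv39h2, Setdb2, Atf7ip and Trim28 and 2 of 3 for Setdb1, where it was the highest at 30.3% of all tested probe sets. For Cbx1 it was the lowest array at 2 of 3 probe sets, where it was the lowest at 16.3% of all. Wild type 1 also had the highest median over the tested probe sets, at 8.20, against 8.09 to 8.15 in the other arrays. After centring each array on that median, wild type 1 was the highest at 8 of the 14 (21.5% of all tested probe sets) and the lowest at 4 (25.5% of all), and in MAS5 it was the highest at 7 (21% of all) and the lowest at 5 (21.4% of all). Both arrays numbered 1 were above the other 4 at 4 of the 14 (17.8% of all), namely both Suv39h2 probe sets, Setdb2 and Trim28 at 1456308_x_at, and below them at 2 (13.3% of all), Setdb1 at 1458215_at and Cbx1 at 1433718_a_at.

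**Figure D5:**
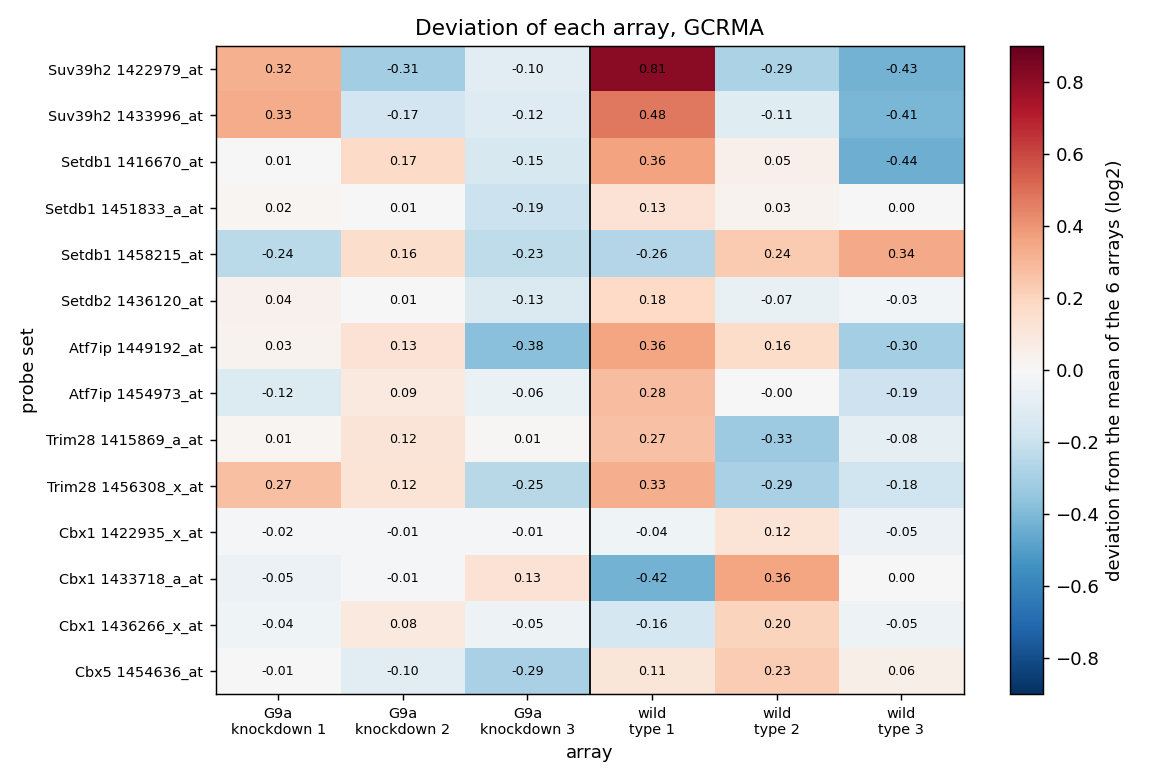
Deviation of each array (columns, 3 G9a knockdown arrays left of 3 wild type arrays) from the mean of the 6 arrays in GCRMA (log2), at the 14 tested probe sets (rows); red is above the mean and blue below. Wild type 1 is the highest array in 9 rows, and knockdown 3 is the lowest in 4 (14.7% of all tested probe sets), among them Cbx5.

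Genes whose profile was most like that of an HP1 gene were looked up as a description among the other 9024 genes, each by its brightest tested probe set, by Pearson's r over the 6 arrays. For Cbx1 (1433718_a_at) these were Txndc17 (r = 0.994), Mrpl52 (0.991) and 9130019O22Rik (0.987). For Cbx5 (1454636_at) they were Cdk2ap1 (0.983), Bscl2 (0.980) and Traf5 (0.977). Bscl2 read 9.32, 9.14 and 8.91 in knockdown arrays, against 9.37, 9.46 and 9.30 in wild type arrays, and its groups overlapped. Those of Cdk2ap1 and Traf5 narrowly did not. Their highest knockdown values were 11.728 and 6.765, against lowest wild type values of 11.734 and 6.768. All 3 genes were picked for a profile like that of Cbx5. In all, 13 of the 9024 genes had r over 0.95 with Cbx1 and 11 with Cbx5. Cbx3 had no tested probe set of its own to compare.

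Other genes of the lysine 9 pathway were taken from pathway lists, each gene by its brightest tested probe set, and none of them was called either, where 0.0111% of 9025 genes were. Of the G9a complex list, 5 of 6 genes were tested, and 4 had a difference above 0 (48.9% of all genes) and 1 below (median 0.099, against −0.0063 over all genes). At an unadjusted p under 0.05 there were 2 of the 5, or 40%, against 14.2% of all genes. Uhrf1, which encodes a reader of hemimethylated DNA and of methylated lysine 9, read 8.36, 7.07 and 6.96 in knockdown arrays, against 9.26, 7.85 and 7.89 in wild type arrays. The groups overlapped, both arrays numbered 1 were high, and within each number the knockdown array was lower, with a difference of −0.87 (limma adjusted p = 0.149, and unadjusted p of 1.91e-04 with the block and 0.14 without it). Cdyl, a chromodomain corepressor that binds G9a, differed by 0.34 (0.14 at each of its other tested probe sets), and Wiz, a zinc finger partner of G9a and GLP, by 0.19.

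Of 32 heterochromatin partners listed, 25 were tested, with 15 above 0 (48.9% of all genes) and 10 below, a median of 0.034 and 0 called. At an unadjusted p under 0.05 there were 4 of these genes, or 16%, against 14.2% of all genes. Tasor, a subunit of the HUSH silencing complex that works with SETDB1, differed by 0.46 (limma adjusted p = 0.271), from 0.35 to 0.59 when each replicate number was left out. Dnmt1, the maintenance DNA methyltransferase, differed by −0.29, and Kmt5b, a methyltransferase of histone H4 lysine 20 that HP1 brings to heterochromatin, by 0.27, with 0.035 and 0.027 at its other tested probe sets. The counts depend on the probe set taken: Smarcad1, counted at 0.13, differed by −0.94 at its other tested probe set, 1435651_a_at (limma unadjusted p = 0.00354). Of 11 lysine 9 demethylase genes, 10 were tested, with 8 above 0 and 2 below, a median of 0.064 and 0 with an unadjusted p under 0.05. The 3 of lowest p were Kdm1a, with a log2 difference of 0.20, Phf8, with −0.12, and Phf2, with 0.086, and their unadjusted limma p-values were 0.0808, 0.231 and 0.423. At their other tested probe sets Kdm1a differed by 0.15 and Phf8 by 0.045, the latter with the opposite sign.

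The chromobox genes of the Polycomb group carry a chromodomain related to that of HP1 but bind a different methylated lysine of histone H3. All 4 on the array that have a probe set of their own were tested, with 3 above 0 (48.9% of all genes) and 1 below (median 0.11). Of these 4, 0 were called (0.0111% of all genes) and 1 had an unadjusted p under 0.05 (14.2% of all genes). Cbx6 read 9.85, 10.11 and 10.27 in knockdown arrays, against 9.52, 9.83 and 9.82 in wild type arrays. Every knockdown array was higher, as held for 5.04% of all tested probe sets, the difference was 0.35 (0.43 at its other tested probe set, 1429290_at), and the limma adjusted p was 0.271. Cbx8 and Cbx7 differed by 0.085 and 0.14.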

How the data were processed

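The 12 deposited columns are 6 arrays in 2 summaries and were counted as 6 samples. Per the labels, the authors summarised each array with MAS5 and with GCRMA, whose versions the labels omit. MAS5 values were deposited as intensity (linear), with a 2% trimmed mean of 500 per array, and the deposited GCRMA columns hold log2 values. Arrays give no depth, and their number, 3 per group, limits the precision. Compared without pairing, 3 against 3 arrays cannot give a two-sided exact permutation p below 0.10. With arrays paired by number, as in the main fit, that limit is higher.

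Of 45101 probe sets, 64 controls were left out. Gene names came from the supplied platform annotation (1 gene for 34958 probe sets, several for 932, none for 9211), and 99.1% of gene identifiers were found in the RefSeq table of the GRCm38.p6 assembly, and 0 symbols differed. No coordinates are given, since the build is not stated.

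Probe sets above log2 4 in at least 3 arrays (17028) were fitted in R 4.3.3 by limma 3.58.1, with group and replicate number (the block) as terms of lmFit and eBayes, Benjamini-Hochberg adjustment and a threshold of 0.05. The fit was tested on data simulated with independent normal noise. Changes of 1, 2 and 3 log2 units were given to 67, 67 and 66 probe sets and recovered at 94.0%, 98.5% and 100% of them. In the same run 20 unchanged probe sets were also called. The real fit called 2 probe sets, and the adjusted threshold is stricter where fewer pass. Prtn3, with a difference of 1.19, was not called there (limma adjusted p = 0.21). These recovery shares therefore do not carry over to the chosen genes. MAS5 values were tested as log2(value + 1). The labels give both groups the numbers 1 to 3 without saying what a number stands for. The block was set by the rule for the chosen genes, which takes the numbers to pair the arrays. Same-numbered arrays deviated together from their group means (r = 0.72, 0.57 and 0.37, against −0.59 to 0.17 for different numbers). Deviations sum to 0 within each group of 3, so part of that contrast is built in. Alternatives covered the block, MAS5, the filter, the normalization, array weights and each replicate number left out.

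Genes named are all probe sets of the chosen genes and of Ehmt2, the 3 genes of lowest p in each pathway list, and the 3 most similar profiles for each HP1 gene. The other tested Cdyl, Kmt5b, Cbx6, Kdm1a and Phf8 probe sets are given as a check. Erythroid, myeloid and megakaryocyte marker genes above or under the filter are named, and the lymphoid, fibroblast and endothelial ones are only counted. Values by array for Itga2b and Prtn3, and differences for Csf1r, Pf4, Klf1 and Smarcad1, were chosen after their values were seen. The same holds for the other probe sets of erythroid genes. The genes, lists and alternatives were chosen with earlier results of these data known.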

Additional observations from a re-analysis of the deposited data

How the results depend on the processing

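None of the 14 tested HP1 and methyltransferase probe sets was called under any alternative run (lowest limma adjusted p = 0.289, with the stricter filter at log2 6, which leaves 10 of them). Of 150 differences recomputed, 131 kept their sign and 19 did not, all at differences of at most 0.10 in size. Those of Setdb1 at 1451833_a_at and 1458215_at, Setdb2, Atf7ip at 1449192_at and Cbx5 kept it throughout, and Cbx5 ran from −0.34 to −0.21. In MAS5 with 1 and with 16 added, the sign turned for Suv39h2 at 1422979_at (0.055 and 0.047), Setdb1 at 1416670_at (−0.12 and −0.11) and Cbx1 at 1422935_x_at (0.37 and 0.35). The last also turned with quantile normalization (0.0059), and Cbx1 at 1433718_a_at and 1436266_x_at with array weights (−0.042 and −0.023).

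With each replicate number left out in turn, differences ran from −0.26 to 0.15 for Suv39h2 at 1422979_at and from −0.10 to 0.11 at 1433996_at, from −0.12 to 0.21 for Setdb1 at 1416670_at, and from −0.16 to 0.11 for Atf7ip at 1454973_at. They ran from −0.079 to 0.27 for Trim28 at 1415869_a_at and from −0.058 to 0.18 at 1456308_x_at. For Cbx1 they ran from −0.055 to 0.032 at 1422935_x_at, from −0.12 to 0.25 at 1433718_a_at and from −0.059 to 0.062 at 1436266_x_at. Sizes also moved where the sign held: the difference of Setdb2 was −0.015 without replicate 1 and −0.12 without replicate 2, and that of Atf7ip at 1449192_at was −0.054 without replicate 1 and −0.20 without replicate 2. Setdb1 ran from −0.15 to −0.067 at 1451833_a_at and from −0.32 to −0.028 at 1458215_at.

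Ehmt2 kept its direction throughout. With no replicate block, 1460692_at differed by −2.87 (limma adjusted p = 0.0719) and 1 probe set was called on the array in place of 2. In MAS5, Ehmt2 differed by −2.71 at 1426888_at and −2.46 at 1460692_at with 1 added, and by −2.41 and −2.42 with 16 added, with 0 probe sets called (limma; 1799 and 1852 at an unadjusted p under 0.05). Without the filter, Ehmt2 differed by −2.86 and −2.87 and 0 of 45037 probe sets were called (limma; 3883 at an unadjusted p under 0.05), and 6.3% of probe sets had groups that did not overlap, against 12.4% with the filter. With the stricter filter 8 were called, and with array weights 4. Leaving out each replicate number gave −2.97 to −2.73 at 1426888_at, −2.98 to −2.68 at 1460692_at and 0 to 1 probe sets called. A fit of 2 pairs has 1 residual degree of freedom before limma's shrinkage. The causes of the changes between these settings were not tested. The 1 probe set of Cbx3 alone ranged over 0.043 across the 6 arrays in GCRMA, far under the filter, so a difference in Cbx3 was not detectable there.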
